A study of Mus musculus with 8 samples.

Results

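The genes described here are the NF-kB factors, the proteins that switch them on and off, and inflammatory genes that NF-kB is known to drive, 33 genes in all of the 52338 genes listed in the series. They were picked by gene symbol for their known roles, though with earlier results of these data known, and each of the 33 has a row in both deposited tables. By role, 17 are parts of the pathway (subunits, IkB proteins, kinase subunits, adaptors and feedback proteins) and 16 are targets (chemokines, cytokines, adhesion molecules, Tnfaip2 and Ptgs2). RNA sequencing was done on 8 libraries labelled as wild type C2C12, an immortalised line of mouse myoblasts, to see what a ginseng preparation and one of its saponins do to gene expression. One table holds 3 libraries of cells given ginsenoside Re, a triterpene saponin of ginseng, and 3 libraries of cells given DMSO, the solvent control. The other table holds 1 library of cells treated with ginseng berries concentrate (GBC) and 1 DMSO library. The sources used here state neither doses nor treatment times, and no label says whether replicates were separate cultures. P-values therefore measure only the spread between these libraries, which may be technical.

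In resting cells the NF-kB dimers, built from Rela, Relb, Rel and the products of Nfkb1 and Nfkb2, are held in the cytoplasm by IkB proteins. Signals from TNF, interleukin-1 or Toll-like receptors activate the IkB kinase, whose catalytic subunit is encoded by Ikbkb and whose scaffold NEMO is encoded by Ikbkg. The kinase marks IkB for degradation, and the freed dimers enter the nucleus and turn on chemokine, cytokine, adhesion and survival genes together with their own inhibitors, such as Nfkbia and Tnfaip3. In muscle the pathway is known for its part in wasting and inflammation and for holding back differentiation of myoblasts.

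Levels are given in TPM, a measure scaled to transcript length and to the library's total, and differences are of log2(TPM + 1). The listed genes summed to 642180 to 743269 TPM in the 6 libraries of the Re table, lowest in DMSO replicate 2, and to 479938 TPM in the GBC library against 403442 TPM in its DMSO library. The depth behind these values is unknown. Of 10 myoblast markers, 8 averaged 1 TPM or more in the Re group and 8 in its DMSO group, with sums of 276 to 291 TPM and 266 to 301 TPM. In the GBC pair 2 of the 10 did, Tnnt2 and Des, with sums of 21.3 TPM in the GBC library and 13.6 TPM in the DMSO library. Most of each sum was Tnnt2, at 19.47 TPM with GBC and 11.53 TPM with DMSO. Myod1, Myf5 and Cdh15, which define myoblasts, were listed at 0 in both libraries. The pair thus goes against its myoblast label on these markers, and its libraries are called by their labels only. Of 10 macrophage and leukocyte markers the sums were 13.6 to 14.3 TPM with Re and 11.3 to 14.8 TPM with DMSO, most of it Cd14. In the pair they were 3.75 TPM with GBC and 2.70 TPM with DMSO. Adgre1 and Tyrobp were listed at 0 in all 6 libraries of the Re table, as was Ptprc, and none of these 3 passed 0.11 TPM in the pair. The 6 endothelial markers summed to at most 1.13 TPM in any library. The 8 fibroblast and mesenchymal markers summed to 265 to 307 TPM with Re and 211 to 304 TPM with DMSO. In the pair they summed to 226 TPM with GBC and 164 TPM with DMSO. The sums were made up differently. In DMSO cells of the Re table Col3a1 and Col1a1 averaged 219 and 16.5 TPM, against 19.77 and 10.94 TPM in the DMSO library of the pair. Ly6a, Cd34 and Pdgfra ran the other way, at 13.2, 3.36 and 2.27 TPM against 51.52, 51.51 and 5.85 TPM. Thy1 was listed at 0 in those DMSO cells of the Re table and had 23.75 TPM in the pair. In such bulk samples, fewer cells of a type and less RNA per cell cannot be told apart.

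Promoter windows from RefSeq on GRCm38.p6, running from 250 bases before to 50 bases after the annotated gene start, were matched by symbol for 24 of the 33 genes. Nfkb1, Relb, Nfkbiz, Ikbkb, Ccl2, Ccl5, Ccl7, Cxcl5 and Vcam1 had no window. Both strands were searched for the kB consensus motif, the 10-base site bound by NF-kB dimers. A match was found for 10 of the 24 genes, which is 41.7%, and 9.55% of 27025 genes with a window hold one. The 10 genes were Nfkb2, Rel, Nfkbia, Nfkbie, Bcl3, Tnfaip2, Tnfaip3, Cxcl1, Cxcl2 and Csf1. A looser form of the consensus, with any bases at the 5 middle positions, was in the windows of 79.2% of the 24 genes and of 53.5% of all. These are matches of letters and no measure of binding. The windows of 4 genes are shown as those of the members described most fully below: the chief feedback inhibitor, the most abundant cytokine gene with a match, and a pair of neighbouring chemokine genes whose matches are the same and whose levels are not. Capitals mark the kB matches, and overlapping matches run together.
Nfkbia (chr12:55492598-55492897, minus strand): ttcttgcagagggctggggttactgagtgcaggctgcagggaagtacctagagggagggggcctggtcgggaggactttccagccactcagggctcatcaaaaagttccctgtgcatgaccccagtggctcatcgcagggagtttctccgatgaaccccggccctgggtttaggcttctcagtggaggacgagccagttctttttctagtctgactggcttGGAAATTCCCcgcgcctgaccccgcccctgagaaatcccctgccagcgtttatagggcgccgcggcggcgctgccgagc
Csf1 (chr3:107760420-107760719, minus strand): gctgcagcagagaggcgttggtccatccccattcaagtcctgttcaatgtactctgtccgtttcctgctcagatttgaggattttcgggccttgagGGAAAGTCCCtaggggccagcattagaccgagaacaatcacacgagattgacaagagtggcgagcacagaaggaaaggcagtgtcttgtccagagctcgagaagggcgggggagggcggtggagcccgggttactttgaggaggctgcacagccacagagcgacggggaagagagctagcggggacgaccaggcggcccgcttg
Cxcl1 (chr5:90890995-90891294, plus strand): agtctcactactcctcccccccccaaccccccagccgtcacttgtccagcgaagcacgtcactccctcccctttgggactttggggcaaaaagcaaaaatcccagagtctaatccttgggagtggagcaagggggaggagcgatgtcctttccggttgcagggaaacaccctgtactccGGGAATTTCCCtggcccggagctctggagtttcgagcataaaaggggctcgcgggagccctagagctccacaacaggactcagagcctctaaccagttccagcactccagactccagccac
Cxcl2 (chr5:90903649-90903948, plus strand): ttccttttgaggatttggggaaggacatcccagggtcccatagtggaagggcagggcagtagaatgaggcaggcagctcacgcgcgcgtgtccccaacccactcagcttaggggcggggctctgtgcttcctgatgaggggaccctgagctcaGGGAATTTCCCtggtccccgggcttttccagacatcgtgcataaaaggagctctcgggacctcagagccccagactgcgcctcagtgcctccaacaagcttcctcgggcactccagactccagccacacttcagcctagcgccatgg
Cxcl1 and Cxcl2 both carry GGGAATTTCC on one strand, overlapped by a match read on the other, 71 bases before the gene start in Cxcl1 and 97 bases before it in Cxcl2. The match in Nfkbia begins 29 bases before the gene start and that in Csf1 154 bases before it. Cxcl1 had 28.9, 35.2 and 26.4 TPM with Re, against 27.6, 28.4 and 29.4 TPM with DMSO, while Cxcl2 was listed at 0 in all 8 libraries.

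In the cells of the Re table the pathway was expressed almost whole. Of the 17 pathway parts 16 averaged 1 TPM or more over the 6 libraries, Birc3 being the exception, with a median of 12.5 TPM and a highest mean of 39.2 TPM for Nfkbia. Of the 16 targets 11 did, and their levels were spread much wider, up to a mean of 222 TPM for Ccl2, which encodes the monocyte attractant MCP-1. Ccl2, Csf1 and Ccl7 were the 3 highest of the 33 genes in the DMSO libraries, and Ccl2 and Ccl7 alone made up 50.9% to 56.4% of the summed TPM of the targets with Re and 51.8% to 54.1% with DMSO. By contrast several classical inflammatory genes were all but silent: Il1b and Csf2, like Cxcl2, were listed at 0 in all 6 libraries, Tnf had at most 0.14 TPM, and Icam1, an adhesion molecule for leukocytes, at most 0.34 TPM.

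**Figure D1:**
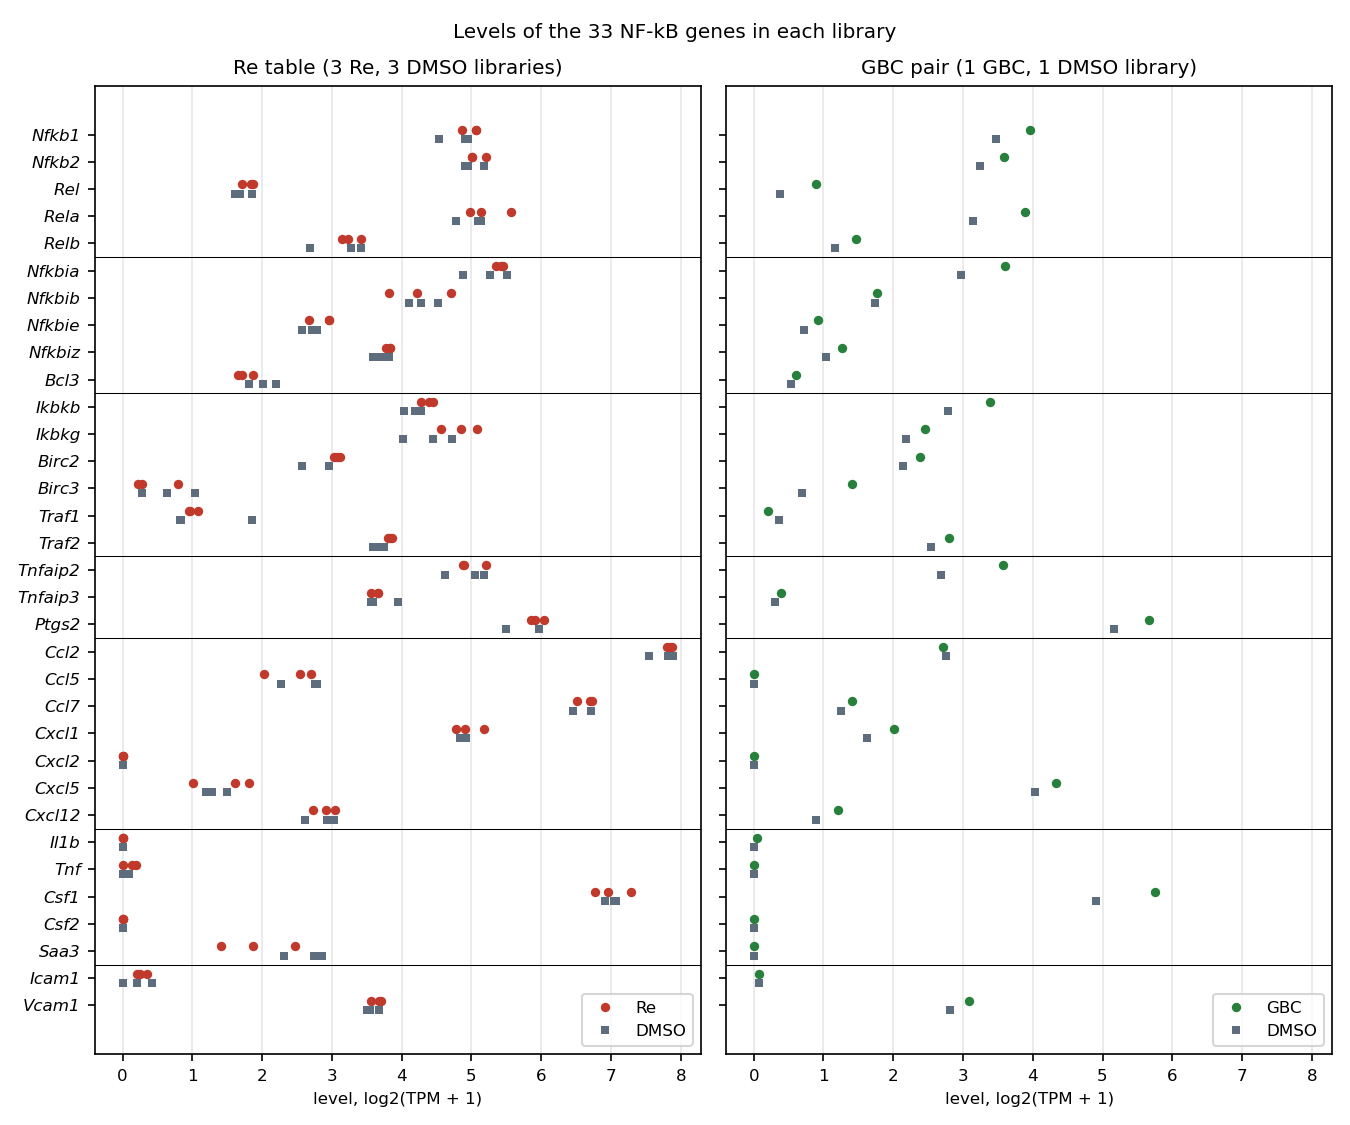
Level of each of the 33 genes in each library, as log2(TPM + 1), in the Re table (left panel, circles Re and squares DMSO, 3 libraries each) and in the GBC pair (right panel, circle GBC and square DMSO, 1 library each). Lines divide the roles: subunits, IkB proteins, kinase and adaptors, TNF-induced intracellular proteins, chemokines, cytokines and adhesion molecules. Ccl2, Ccl7 and Csf1 stand highest on the left, Csf1 and Ptgs2 on the right, and Il1b, Csf2 and Cxcl2 lie at or near 0 in both.

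No NF-kB gene passed the test between 3 Re and 3 DMSO libraries: 0 of the 27 genes tested reached an adjusted p of 0.05 in limma, where 0.0% of all 11967 genes did. At an unadjusted p under 0.05 there was 1 of the 27, Saa3, which was lower with Re, where 6.23% of all genes passed that measure, 0.577% lower and 5.65% higher. The differences of the 27 ran from -0.72 to 0.43, with a median of 0.094, and the median over all genes tested was 0.105. Of the 27, 20 had a difference above 0, against 77.5% of all genes. Median-of-ratios scaling, which divides each library by its median ratio to the average library, moved the median of all genes to -0.000489 and that of the 27 to -0.0146. Then 13 of the 27 were above 0, against 49.8% of all genes, while Saa3 was again the 1 gene at an unadjusted p under 0.05, against 4.72% of all genes. The 95% confidence interval held 0 for 26 of the 27 and lay within 1 on either side of 0 for 26 of them, all but Saa3, which is 96.3%, against 94.6% of all genes.

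None of the 5 subunit genes separated the groups. Nfkb1, which encodes the precursor of p50, had 28.2, 32.4 and 32.4 TPM in the Re libraries, against 29.9, 22.2 and 28.9 TPM in the DMSO libraries. Nfkb2, precursor of p52 in the noncanonical arm, had 31.3, 31.2 and 35.9 TPM with Re, against 35.4, 29.8 and 29.2 TPM with DMSO. Rela, the main activating subunit, had 30.4, 34.1 and 46.4 TPM with Re, against 34.3, 26.5 and 33.3 TPM with DMSO. The highest Rela value belonged to Re replicate 3 and the lowest to DMSO replicate 2. Relb, partner of p52, had 7.84, 9.71 and 8.37 TPM with Re, against 8.64, 5.42 and 9.73 TPM with DMSO. Rel, a subunit best known from lymphocytes, was the lowest of the 5 at 2.28, 2.60 and 2.65 TPM with Re, against 2.62, 2.06 and 2.20 TPM with DMSO. The 5 differences ran from 0.06 for Nfkb2 to 0.22 for Rela, with intervals of -0.19 to 0.32 and -0.17 to 0.61, and after scaling from -0.05 to 0.10. Leaving out 1 library moved Rela to between 0.04 (without Re replicate 3) and 0.34 (without Re replicate 1), and Nfkb1 to between 0.07 (without DMSO replicate 2) and 0.28 (without DMSO replicate 1). Between the subunits themselves, Nfkb1 stood at 0.698 to 0.952 times the TPM of Rela in the Re libraries and at 0.838 to 0.872 times in the DMSO libraries, a ratio that no scaling of a library can move.

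Among the IkB proteins, which hold the dimers or act beside them in the nucleus, Nfkbia led. It encodes IkB-alpha, the inhibitor that NF-kB itself induces, and it had 42.6, 39.8 and 41.9 TPM in the Re libraries, against 37.5, 28.5 and 44.7 TPM in the DMSO libraries. The Re values were tightly grouped and lay inside the range of the DMSO values. Nfkbib, a second cytoplasmic inhibitor, had 13.1, 17.6 and 25.1 TPM with Re, against 18.5, 21.9 and 16.2 TPM with DMSO, with Re replicate 1 lowest and Re replicate 3 highest of the 6. Nfkbie, which encodes IkB-epsilon, had 5.35, 6.77 and 6.80 TPM with Re, against 5.91, 4.94 and 5.57 TPM with DMSO. Nfkbiz, a nuclear IkB protein that assists a subset of targets, had 12.7, 13.3 and 13.3 TPM with Re, against 12.0, 11.0 and 13.2 TPM with DMSO, with Re replicates 2 and 3 just above the highest DMSO value. Bcl3, a nuclear partner of p50 and p52, had the lowest difference of the IkB genes, at 2.16, 2.65 and 2.27 TPM with Re, against 3.04, 3.57 and 2.51 TPM with DMSO, and its groups overlapped. The difference for Nfkbia was 0.18 with an interval of -0.17 to 0.54, and that for Bcl3 was -0.26 with an interval of -0.64 to 0.12 (adjusted p = 0.687, limma). Nfkbia differed by 0.02 without DMSO replicate 2 and by 0.33 without DMSO replicate 3, where the unadjusted p in limma was 0.0491.

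The genes of the kinase and its adaptors held the 3 members whose groups did not overlap. Ikbkb, the catalytic subunit that phosphorylates IkB, had 20.1, 18.5 and 20.8 TPM in the Re libraries, against 18.4, 15.3 and 17.2 TPM in the DMSO libraries. Birc2, a ubiquitin ligase of the TNF receptor complex, had 7.68, 7.43 and 7.21 TPM with Re, against 6.79, 4.94 and 6.77 TPM with DMSO. Traf2, the adaptor that recruits it, had 13.6, 13.2 and 12.9 TPM with Re, against 11.9, 11.0 and 12.4 TPM with DMSO. In each the lowest Re value exceeded the highest DMSO value, which makes 3 of 27 genes, where 15.0% of all genes did not overlap, 13.7% with Re above DMSO and 1.27% with Re below. The differences were 0.21, 0.25 and 0.16, and none passed the threshold (adjusted p = 0.687 each, limma). After scaling the separation remained in Ikbkb, at 1 of 27 genes, where 10.2% of all genes did not overlap, 5.22% with Re above and 4.96% with Re below. Ikbkg, the NEMO scaffold of the kinase, showed the largest difference of the 27 above 0, at 22.6, 28.0 and 32.7 TPM in the Re libraries, against 20.9, 15.3 and 25.4 TPM in the DMSO libraries, and its groups overlapped. Its difference was 0.43 with an interval of -0.02 to 0.89 (adjusted p = 0.687, limma), or 0.32 after scaling. Leaving out 1 library gave 0.25 without DMSO replicate 2 to 0.59 without DMSO replicate 3, where the unadjusted p in limma was 0.0167, and 0.57 without Re replicate 1. Traf1, an adaptor that is itself a target, had 0.93, 0.95 and 1.11 TPM with Re, against 0.79, 0.77 and 2.61 TPM with DMSO, so that DMSO replicate 3 stood alone. Birc3, the close relative of Birc2, had 0.21, 0.74 and 0.17 TPM with Re, against 0.55, 1.06 and 0.21 TPM with DMSO and was too low to be tested. Whether reads are shared between near relatives such as Birc2 and Birc3 was not tested.

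Among the TNF-induced intracellular genes, Tnfaip3 encodes the ubiquitin-editing brake A20 and had 10.8, 11.6 and 11.6 TPM with Re, against 14.4, 11.1 and 10.8 TPM with DMSO. Its highest value was in DMSO replicate 1, and the other 5 lay between 10.8 and 11.6 TPM. Ptgs2, which encodes the prostaglandin-making enzyme COX-2, had 59.0, 56.7 and 64.6 TPM in the Re libraries, against 61.7, 44.3 and 61.4 TPM in the DMSO libraries. Tnfaip2 had 28.4, 28.8 and 36.1 TPM with Re, against 35.4, 23.6 and 32.3 TPM with DMSO. In Ptgs2 and Tnfaip2 the lowest of the 6 values came from DMSO replicate 2, and the groups overlapped. That library was the lowest of the 6 in 18 of the 27 genes, or 66.7%, and in 50.6% of all genes, and after scaling in 37.0% and 22.0%. Its part in the differences given here was not tested beyond leaving it out, which moved the median difference of the 27 genes to 0.0357. The median of all genes moved down with it. The median of the 27 lay -0.0182 from that of all genes without this library, and -0.0111 with all 6 libraries.

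The chemokine genes held the highest level of all. Ccl2 had 222, 229.6 and 233 TPM in the Re libraries, against 226, 187 and 237 TPM in the DMSO libraries. Ccl7, which lies in the same chemokine family and attracts monocytes too, had 103, 105 and 90.8 TPM with Re, against 104, 86.9 and 87.2 TPM with DMSO. Neither gene separated the groups, and Ccl7 stood at 0.389 to 0.462 times the TPM of Ccl2 with Re and at 0.368 to 0.466 times with DMSO. The differences were 0.08 and 0.10, with intervals of -0.16 to 0.32 and -0.14 to 0.34, and were -0.03 and -0.01 after scaling. Cxcl1, a neutrophil attractant, differed by 0.07, with DMSO values that varied by a coefficient of variation of 3.11%, the smallest of the 27 genes. Cxcl12, which guides progenitors through CXCR4, had 7.27, 5.60 and 6.57 TPM with Re, against 6.59, 5.10 and 7.18 TPM with DMSO. Ccl5, a T cell attractant, had 3.06, 4.84 and 5.50 TPM with Re, against 5.91, 3.82 and 5.77 TPM with DMSO, lowest in Re replicate 1. Cxcl5, another neutrophil attractant, was low in these cells at 2.07, 2.51 and 1.01 TPM with Re, against 1.29, 1.81 and 1.44 TPM with DMSO, and its Re values spanned wider than its DMSO values on both sides.

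Of the cytokine and adhesion genes, Csf1, which encodes the growth factor of macrophages, had 108, 124 and 155 TPM in the Re libraries, against 134, 131 and 120.1 TPM in the DMSO libraries. Its Re libraries held both the lowest and the highest of the 6 values, and the difference was 0.00 with an interval of -0.31 to 0.30. Vcam1, an adhesion molecule of myoblasts and endothelium, had 11.8, 10.8 and 12.0 TPM with Re, against 10.7, 10.4 and 11.8 TPM with DMSO. Saa3, an acute-phase serum amyloid gene, was the member with the smallest p, at 1.67, 2.67 and 4.52 TPM in the Re libraries, against 3.96, 6.26 and 5.67 TPM in the DMSO libraries. Re replicates 1 and 2 lay below every DMSO value, and Re replicate 3 lay between DMSO replicates 1 and 3, so the groups overlapped. Its difference was -0.72 with an interval of -1.35 to -0.08, an unadjusted p of 0.0312 and an adjusted p of 0.687 in limma. Leaving out 1 library gave -0.47 without Re replicate 1 to -0.99 without Re replicate 3. The unadjusted p in limma was then 0.103 and 0.00403, and above 0.05 also without Re replicate 2, DMSO replicate 2 or DMSO replicate 3.

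**Figure D2:**
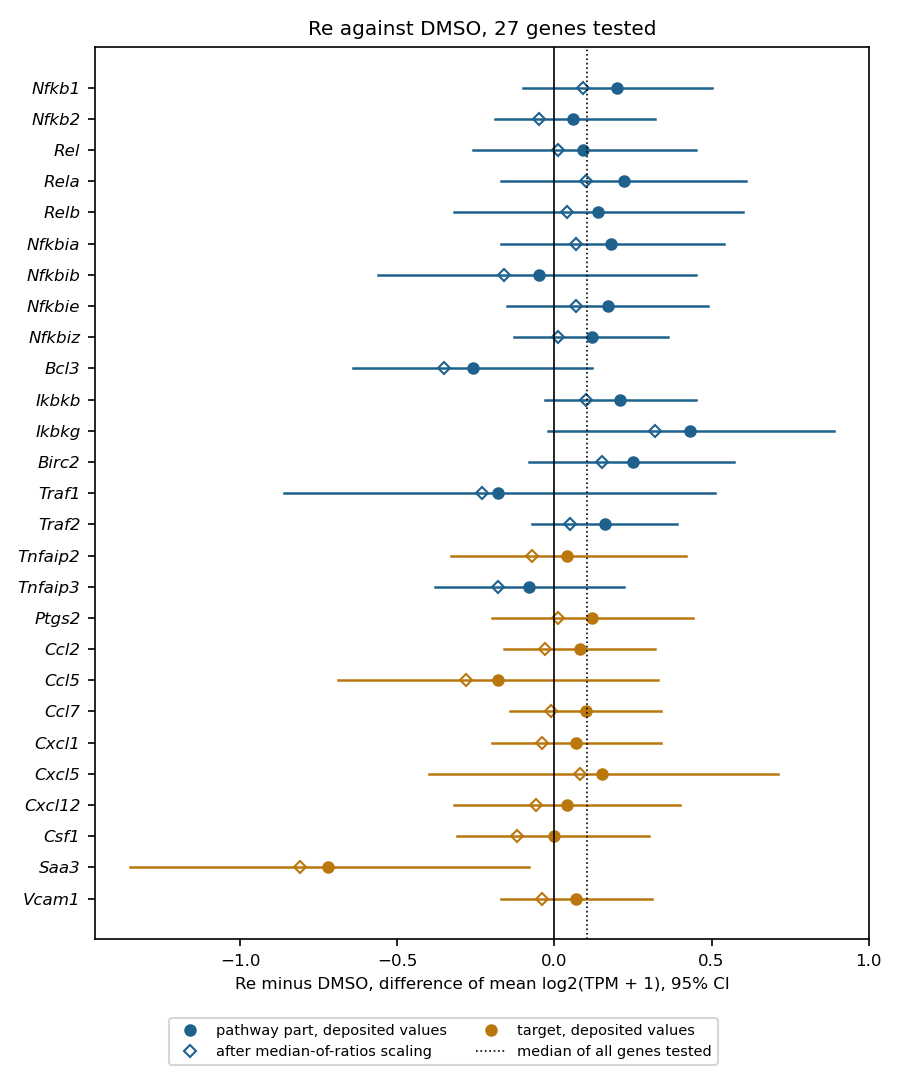
Difference of mean log2(TPM + 1), Re minus DMSO, for the 27 genes tested, with the 95% confidence interval from limma (filled circles and lines; 3 libraries each) and the difference after median-of-ratios scaling (open diamonds). The solid line marks 0 and the dotted line the median of all genes, 0.105; the interval of Saa3 alone, -1.35 to -0.08, leaves 0 outside.

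In the GBC pair most NF-kB genes had higher values with GBC, as did most genes of the table, and with 1 library a group no test was made. Of the 33 genes, 12 averaged 5 TPM or more in the pair, and they differed by -0.03 to 0.90, with a median of 0.493, and the median of all 6639 genes with such a mean was 0.307. None of the 12 differed by 1 or more in size, while 4.97% of the 6639 genes were that much higher and 0.241% that much lower. Of the 12, 11 were above 0, against 88.9% of all, and 8 lay above the median of all genes. The median of the 12 lay 0.186 above that of all genes. A mean of at least 1 TPM takes in 21 of the 33 genes, whose median was 0.314 and lay -0.00605 from that of all genes. At a mean of at least 10 TPM, 5 genes had a median of 0.504, which lay 0.233 above that of all genes. The excess over the table thus went away when genes of lower level were let in. The stricter filter is no separate check, because its 5 genes are part of the 12. Rela also reached a mean of 10 TPM only through its GBC value, 13.84 TPM against 7.87 TPM with DMSO. Without mitochondrially encoded genes 16 of the NF-kB genes passed the 5 TPM filter, and the excess shrank to 0.0821. After median-of-ratios scaling the 12 genes had a median of 0.123 and all genes -0.0567. Traf2, Ccl2, Cxcl5 and Vcam1 were then below 0 and Nfkb2 was at 0.00. The rest of the 12 were above 0, where 42.9% of all genes were. Of the 8 fibroblast and mesenchymal markers, Col1a1 had 46.6 TPM with GBC and 10.9 TPM with DMSO, and Col3a1 had 39.3 TPM with GBC and 19.8 TPM with DMSO. Pdgfra had 9.84 TPM with GBC and 5.85 TPM with DMSO, and Ly6a had 58.45 TPM with GBC and 51.52 TPM with DMSO. Thy1 and Cd34 were slightly lower with GBC, at 22.11 and 49.53 TPM, against 23.75 and 51.51 TPM with DMSO. Dcn and Lum had at most 0.19 TPM in either library. The part of this list in the differences of the pair was not tested.

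Among the 12 genes the largest differences were those of the targets Tnfaip2 and Csf1. As a group, however, the 6 targets had a median difference of 0.403, below the 0.547 of the 6 pathway parts. Tnfaip2 had 10.9 TPM in the GBC library, against 5.40 TPM in the DMSO library, a difference of 0.90, or 0.56 after scaling. Csf1 had 53.2 TPM in the GBC library, against 29.1 TPM in the DMSO library, a difference of 0.85, or 0.47 after scaling. Ptgs2, the highest target of the DMSO library, had 49.9 TPM with GBC and 34.9 TPM with DMSO. These 3 genes lay above the median shift of the pair, a standing that scaling of whole libraries can hardly change. Ccl2 went the other way from the shift, at 5.58 TPM with GBC and 5.73 TPM with DMSO, a difference of -0.03, or -0.36 after scaling. Cxcl5 had 19.2 TPM with GBC and 15.4 TPM with DMSO and Vcam1 7.49 TPM with GBC and 6.05 TPM with DMSO, and their differences of 0.30 and 0.27 were within 0.05 of the median of all genes.

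Of the pathway parts in the pair, Rela had 13.8 TPM in the GBC library, against 7.87 TPM in the DMSO library, a difference of 0.74. Nfkbia had 11.2 TPM with GBC and 6.83 TPM with DMSO, and Ikbkb had 9.50 TPM with GBC and 5.87 TPM with DMSO. These 3 genes were the highest of the pathway parts averaging 5 TPM or more, at differences of 0.61 to 0.74, or 0.27 to 0.39 after scaling. Nfkb1 had 14.5 TPM with GBC and 10.1 TPM with DMSO, Nfkb2 11.1 TPM with GBC and 8.46 TPM with DMSO and Traf2 5.98 TPM with GBC and 4.85 TPM with DMSO, with lower differences of 0.25 to 0.48. Below a mean of 5 TPM, where a difference says less, Relb had 1.76 TPM with GBC and 1.25 TPM with DMSO, Ikbkg 4.49 TPM with GBC and 3.54 TPM with DMSO, Birc2 4.22 TPM with GBC and 3.40 TPM with DMSO and Birc3 1.65 TPM with GBC and 0.61 TPM with DMSO. Nfkbib was almost level at 2.41 TPM with GBC and 2.33 TPM with DMSO, and Nfkbiz had 1.41 TPM with GBC and 1.05 TPM with DMSO. Ccl7, Cxcl1 and Cxcl12 had 1.65, 3.04 and 1.30 TPM with GBC and 1.37, 2.07 and 0.85 TPM with DMSO. Rel, Nfkbie, Bcl3, Traf1 and Tnfaip3 were under 1 TPM in both libraries. Ccl5, Saa3, Tnf, Csf2 and Cxcl2 were listed at 0 in both, while Il1b had at most 0.03 TPM and Icam1 0.05 TPM.

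**Figure D3:**
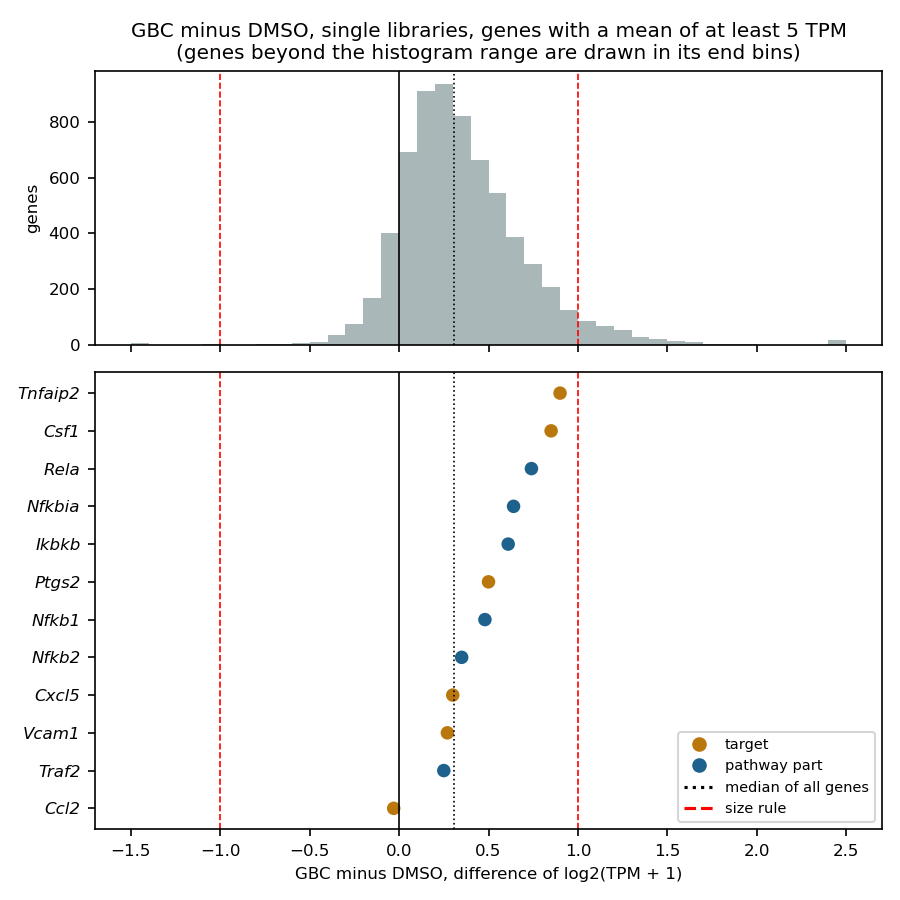
Difference of log2(TPM + 1), GBC minus DMSO, single libraries. Top, histogram of the 6639 genes averaging 5 TPM or more; bottom, the 12 NF-kB genes with such a mean. The dotted line is the median of all genes, 0.307, and the dashed lines mark a difference of 1 in size, which none of the 12 reaches; Tnfaip2 is the nearest at 0.90.

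The 2 tables gave different target profiles in DMSO cells. The tables may have been normalised separately, the groups are not matched, and the pair lacks the myoblast markers named above, so the levels are set side by side with no test. Over 9966 genes with at least 1 TPM in both, the DMSO mean of the Re table was 2.45 times the DMSO value of the pair at the median, with the central 95% of genes at 0.571 to 11.0 times. Ccl7 stood at 67.7 times, Tnfaip3 at 52.6 times from 0.23 TPM in the pair, Ccl2 at 37.8 times, and Cxcl1 at 13.8 times. Pathway parts differed too: the IkB genes ran from 5.4 times for Nfkbia to 11.5 times for Nfkbiz. Of the kinase and adaptor genes, Birc2, Traf2 and Ikbkb stood at 1.81, 2.43 and 2.89 times, and Traf1 and Ikbkg at 4.96 and 5.79 times. The 5 subunit genes ran from 2.67 times for Nfkb1 through 3.72 for Nfkb2, 3.99 for Rela and 6.34 for Relb to 7.64 for Rel. Rel had 0.30 TPM in the DMSO library of the pair. Like Tnfaip3, Nfkbie, Bcl3 and Traf1, it was under 1 TPM there and so lies outside the 9966 genes. Among the targets Ptgs2 stood at 1.60 times, Vcam1 at 1.81 times and Csf1 at 4.41 times. Cxcl5 ran the opposite way: it was 15.4 TPM in the DMSO library of the pair, against a DMSO mean of 1.51 ± 0.268 TPM (SD, n = 3) in the Re table. Within a library Cxcl5 was thus 6.33 times Cxcl1 with GBC and 7.45 times with DMSO, and 0.0383 to 0.0716 times with Re and 0.0467 to 0.0637 times with DMSO in the other table. Csf1 and Ptgs2 were among the 4 highest of the 33 genes in DMSO cells of both tables. Csf1, Ptgs2 and Cxcl5 together made up 80.3% of the summed TPM of the targets with GBC and 78.7% with DMSO, and 29.4% to 34.8% with Re and 30.5% to 33.5% with DMSO.

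**Figure D4:**
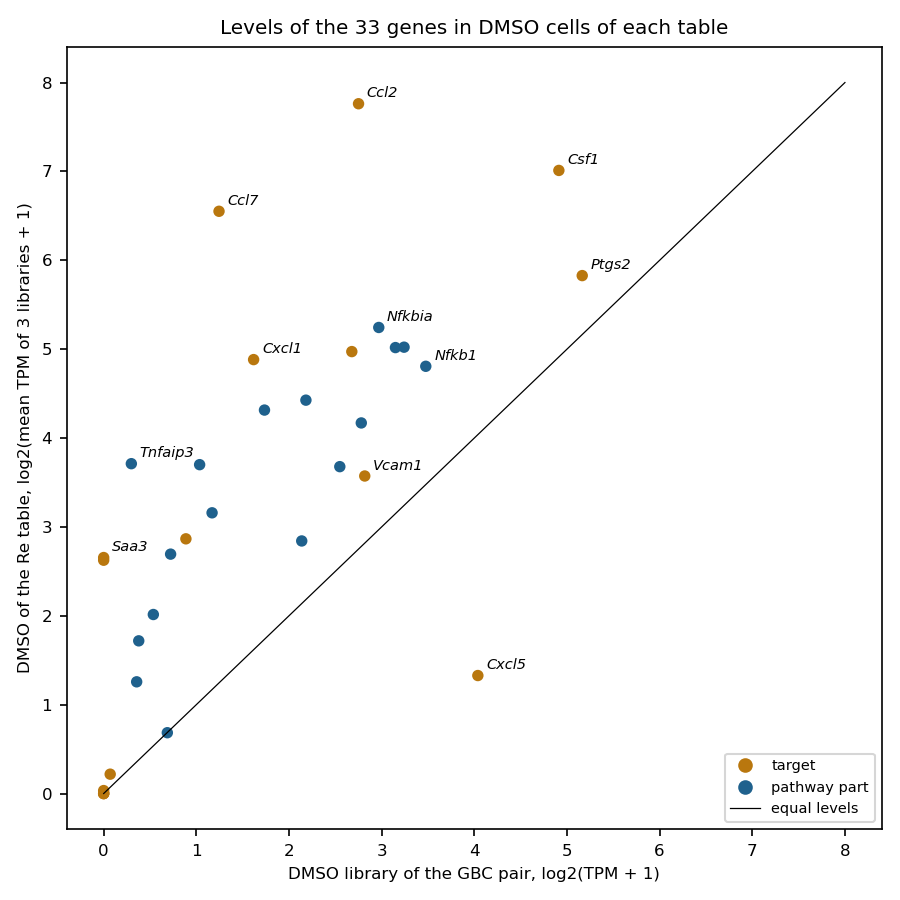
Level of the 33 genes in DMSO cells of the Re table (vertical axis, log2 of the mean TPM of 3 libraries plus 1) against the single DMSO library of the GBC pair (horizontal axis, log2(TPM + 1)), with targets and pathway parts in separate colours and a line of equal levels. Most genes lie above the line; Ccl2 and Ccl7 lie farthest above it and Cxcl5 lies below it.

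Of 95 further genes of the pathway, listed by role with earlier results of these data known, 70 averaged 1 TPM or more in the Re table. None passed the threshold in limma (0 of 70), and 5 had an unadjusted p under 0.05, all higher with Re, where 5.65% of all genes were. After scaling there were 2, against 2.11% of all genes higher and 2.62% lower: Tank, higher at 0.24, and Map3k7, the kinase TAK1, which was lower at -0.25 and not among the 5. Tank, an adaptor of the kinase TBK1, had 21.1, 20.5 and 23.9 TPM in the Re libraries, against 17.1, 15.9 and 17.7 TPM in the DMSO libraries, a difference of 0.35 (adjusted p = 0.687, limma). Traf3, which restrains the noncanonical arm, had 11.8, 11.9 and 12.7 TPM with Re, against 10.6, 10.01 and 9.18 TPM with DMSO, and Irak4, the kinase below the interleukin-1 and Toll-like receptors, had 5.50, 5.93 and 7.43 TPM with Re, against 4.88, 4.48 and 4.89 TPM with DMSO. Tlr2, a receptor for bacterial lipoproteins, had 3.61, 4.03 and 3.40 TPM with Re, against 2.55, 2.81 and 2.86 TPM with DMSO. In these 4 genes the Re values lay above the DMSO values, as in 9 of the 70 genes, where 13.7% of all genes did so. After scaling 3 of the 70 lay above and 1 below, and Tlr2 overlapped. Chuk, the other catalytic subunit of the IkB kinase, had 23.8, 27.5 and 27.4 TPM with Re, against 25.6, 18.2 and 21.3 TPM with DMSO, a difference of 0.27. The fifth gene was Ifngr2, a chain of the interferon gamma receptor, which differed by 0.32.

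By role, 8 of 10 receptors tested and 24 of 28 signalling proteins had a difference above 0 with Re. So did 12 of 13 negative regulators and 17 of 19 further targets, where 77.5% of all genes did. After scaling 4, 15, 7 and 8 did, in the same order, where 49.8% of all genes did. The receptors Tnfrsf1b, Il1rap and Tlr4 differed by 0.18, 0.21 and -0.07. Cyld, Itch, Commd1 and Tnip2, which damp the pathway, differed by 0.20, 0.16, 0.16 and 0.21. The survival gene Cflar differed by 0.23 and Sod2, the mitochondrial superoxide dismutase, by 0.17. The chemokine gene Ccl9 differed by 0.52, with an unadjusted p of 0.18 in limma. The group medians, 0.0606 for receptors to 0.125 for negative regulators, lay within 0.05 of the median of all genes.

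In the GBC pair 39 of the 95 genes averaged 5 TPM or more, and 0 differed by 1 or more in size, where 4.97% of all genes were that much higher. Their median was 0.342. Usp21 and Tax1bp1, which take part in removing or reading ubiquitin chains, differed most, by 0.77 and 0.71. Tapbp, Ier3 and Cd44 differed by 0.55, 0.55 and 0.53, and Tank, Irak1 and Tbk1 by 0.47, 0.46 and 0.44. Il1rl1, the receptor of interleukin-33, had 131 TPM in the GBC library, against 99.3 TPM in the DMSO library, and a mean of 0.41 TPM over the 6 libraries of the Re table. Myd88, the adaptor of the Toll-like receptors, had 7.36 TPM with GBC and 1.47 TPM with DMSO, a difference of 1.76, and Traf3 had 5.43 TPM with GBC and 2.08 TPM with DMSO, a difference of 1.06. Both had a mean under 5 TPM, and they were chosen after their values were seen.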

How the data were processed

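The deposited values are log2(TPM + 1) per Ensembl gene in 2 tables. The authors' processing used STAR and RSEM and the builds GRCh38 and GRCm39, per the submitters' processing notes, with versions, settings and roles not given in the sources used here. Back-transformed values are multiples of 0.01 TPM, with a largest gap of 2.04e-04 TPM. TPM keeps no depth, so no count model or counting interval was used, and tests stayed within a table.

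For Re, limma 3.58.1 (R 4.3.3) gave a moderated two-sided test with trend on log2(TPM + 1), pseudocount 1, for 11967 genes averaging 1 TPM or more, with Benjamini-Hochberg adjustment over all of them and a threshold of 0.05. On simulated data the step recovered 29% of 1.5-fold, 59.1% of 2-fold and 85.2% of 4-fold changes at that threshold, so it misses many small changes. Adding 1 understates the change of low genes. The GBC pair has 1 library a group: among genes averaging 5 TPM or more, those past a difference of 1 in size were counted. Up to 4 further genes per list were named by the smallest p (Re) or the largest difference (GBC). The members and lists were chosen with earlier results of these data known. Other steps used Python 3.11.15, pandas 2.3.3 and matplotlib 3.10.9. Alternatives were other pseudocounts, filters, scalings, variance models, a replicate block and fits that each omit 1 library. Promoter windows are from RefSeq (GRCm38.p6), another build than the notes name, and were used for sequence only.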

Additional observations from a re-analysis of the deposited data

How the results depend on the processing

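No NF-kB gene passed the threshold under any alternative run. The count of all genes called for Re was 0 in each but the leave-one-out fits, which gave 0 to 7 (7 without Re replicate 3), none of them an NF-kB gene. Genes at an unadjusted p under 0.05 numbered 745, or 1226 with no filter on low values and 424 (without Re replicate 2) to 1657 (without DMSO replicate 1) with 1 library left out. Among the 27 NF-kB genes that number was 1. It was 0 of 21 at a mean of at least 5 TPM, a filter that drops Saa3 itself, and 0 of 30 with no filter. It was 2 in robust limma, 2 with the replicate block, where Ikbkg joins Saa3, and 0 to 2 with 1 library left out. Deviations of same-numbered libraries had low correlations of 0.163, 0.0771 and 0.0168, against -0.172 to 0.0945 for differently numbered ones. The numbers, which are those of the sample titles, were not taken as pairs. Small differences changed sign with the scaling: after median-of-ratios scaling those of Nfkb2, Tnfaip2, Ccl2, Ccl7, Cxcl1, Cxcl12 and Vcam1 were -0.05, -0.07, -0.03, -0.01, -0.04, -0.06 and -0.04. With equal sums Nfkb2, Tnfaip2 and Cxcl12 were at 0.00, -0.02 and -0.02, and without mitochondrially encoded genes Nfkb2, Tnfaip2, Ccl2, Cxcl1, Cxcl12 and Vcam1 were at -0.03, -0.05, -0.01, -0.02, -0.04 and -0.02. Leaving out 1 library also changed signs, over 0.00 to 0.15 for Nfkb2, -0.02 to 0.15 for Ccl2, -0.04 to 0.16 for Cxcl1, -0.08 to 0.29 for Relb, -0.28 to 0.16 for Nfkbib, -0.12 to 0.16 for Tnfaip2, -0.04 to 0.20 for Ptgs2, -0.15 to 0.04 for Tnfaip3, -0.35 to 0.02 for Ccl5, -0.01 to 0.39 for Cxcl5, -0.08 to 0.13 for Cxcl12 and -0.15 to 0.11 for Csf1. In the pair, 0 of 12 NF-kB genes reached a difference of 1, or 1 (Tnfaip2) at a pseudocount of 0.1. The count over all genes, 346, was 522 and 218 at means of at least 1 and 10 TPM, 123 after median-of-ratios scaling and 177 with equal sums.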
